A study of Mus musculus with 37 samples.

Results

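The regions described here are 2074 stretches of chromatin in the mouse nucleus accumbens that were more accessible in nuclei of somatostatin (SST) interneurons than in the nuclei left behind, and were not more accessible in nuclei of parvalbumin (PV) interneurons. They come from a table of 178637 regions of 200 bp each that the authors counted in SST libraries. Of these, 133835 overlapped by at least 1 bp a region that the authors counted in PV libraries taken 60 min after an injection, and the 2074 regions are 1.55% of that matched set. Counts were scaled to the same total in every library (CPM), and each ratio was taken between the tagged, immunoprecipitated nuclei (IP) and the unbound fraction (UF) of the saline-injected mice, with 0.5 CPM added to both means. A region was kept where the log2 ratio was at least 1 in SST mice with an IP mean of at least 2 CPM, and at most 0 in PV mice. In all, 12511 matched regions passed the SST thresholds. Of these, 7031 also had a log2 ratio of at least 1 in PV mice with a PV IP mean of at least 2 CPM. They are called open in both. The 2074 regions with no PV excess were 16.6% of the 12511. The mirror set, more open in PV nuclei and not in SST nuclei, held 1448 regions.

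The libraries are ATAC-seq, in which a transposase cuts DNA that is not wrapped or covered, so that the count over a region measures how accessible it was. All mice carried the INTACT allele, a Cre-dependent nuclear membrane protein fused to GFP (Rosa-LSL-Sun1-GFP), together with either Sst-IRES-Cre or Pvalb-IRES-Cre, as compound heterozygotes aged P60 to P210. The driver strains were Ssttm2.1(cre)Zjh/J for SST and B6.129P2-Pvalbtm1(cre)Arbr/J for PV. The nucleus accumbens of both sides of a single mouse made 1 sample, nuclei were isolated with sodium butyrate in every buffer, and the UF was the supernatant of the GFP pull-down. It therefore held the untagged nuclei of all types, SST nuclei included in the case of PV mice. The groups were PV IP and PV UF taken 60 min after 3 mg/kg amphetamine (AMPH, intraperitoneal; 4 libraries each) or after saline (4 each), PV IP and UF taken 24 h after the last of 6 daily injections of AMPH (4 and 4) or saline (3 and 4), and SST IP and UF after saline (3 each). No SST library from AMPH-treated mice was among those analysed here. The labels name replicates, and at 24 h a term given only as Iso1 or Iso2, but not which IP and UF libraries came from 1 mouse.

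PV and SST interneurons are sparse inhibitory neurons that both arise from the medial ganglionic eminence, and the great majority of neurons around them in the accumbens are spiny projection neurons. PV neurons fire fast and inhibit the cell bodies of projection neurons, while SST neurons in the striatum are low-threshold spiking cells that also make neuropeptide Y and nitric oxide synthase. Accessible regions far from gene starts are often enhancers, and they separate neuron types more sharply than promoters do, because the same promoter can be open in many types of cell.

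Only 8 of the 2074 regions (0.386%) overlapped a RefSeq promoter window, taken as 250 bases before to 50 bases after a gene start, against 7.06% of all matched regions, over 21263 listed starts (build GRCm38.p6). The 8 windows belong to Fbxl2, Ube2u, Gcnt2, Serpinb1b, Trappc3l, Prl3c1, Nts and Phf11d. The stretches shown are the windows of Trappc3l, Nts and Ube2u, cut where the accessible region ends on its downstream side, because they are the exceptions in a set that otherwise lies away from starts. Nts encodes neurotensin, a neuropeptide, Trappc3l a relative of a vesicle-tethering subunit, and Ube2u a ubiquitin-conjugating enzyme. Both strands were searched for 4 motifs: AP-1 (TGANTCA), the cAMP response element (TGACGTCA), the homeobox core (TAATTA) and the TATA box (TATAAA). None of the 4 lay in the 8 overlapped stretches. Within the printed windows, 1 match was found, an AP-1 match in the Nts window (capitals), at 207 to 201 bases before the start, just upstream of the accessible region. Over all 21263 promoter windows, 6.99% held the AP-1 motif, 2.23% the cAMP response element, 4.53% the homeobox core and 12.6% the TATA box.
Trappc3l, chr10:34037347-34037611, plus strand, the accessible region covering its last 200 bases: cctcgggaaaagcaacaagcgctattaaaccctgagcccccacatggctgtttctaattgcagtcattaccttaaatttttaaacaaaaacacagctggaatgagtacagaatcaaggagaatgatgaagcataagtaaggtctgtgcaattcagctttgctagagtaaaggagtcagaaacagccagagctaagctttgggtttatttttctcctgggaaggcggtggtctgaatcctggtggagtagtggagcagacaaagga
Nts, chr10:102490408-102490668, minus strand, the accessible region covering its last 200 bases: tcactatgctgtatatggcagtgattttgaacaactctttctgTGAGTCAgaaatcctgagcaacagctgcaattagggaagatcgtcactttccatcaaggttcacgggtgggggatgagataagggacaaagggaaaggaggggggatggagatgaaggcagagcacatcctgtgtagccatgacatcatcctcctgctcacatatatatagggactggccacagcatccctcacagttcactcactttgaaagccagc
Ube2u, chr4:100478617-100478870, plus strand, the accessible region covering its last 200 bases: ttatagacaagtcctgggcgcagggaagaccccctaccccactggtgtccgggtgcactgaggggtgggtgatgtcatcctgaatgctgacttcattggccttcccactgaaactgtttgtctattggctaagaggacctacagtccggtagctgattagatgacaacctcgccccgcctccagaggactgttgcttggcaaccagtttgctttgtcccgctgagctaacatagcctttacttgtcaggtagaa

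The Trappc3l region had 9.38, 9.43 and 8.94 CPM in SST IP and 5.59, 3.84 and 3.16 CPM in SST UF. In PV mice after AMPH it had 0.281, 1.17, 1.21 and 1.44 CPM in IP and 2.91, 3.84, 3.79 and 5.42 CPM in UF, so the PV fractions did not overlap. It fell in PV IP against UF, with a log2 fold change of -1.78 (SE 0.45, edgeR adjusted p = 0.00254). The Nts region had 3.85, 5.78 and 4.47 CPM in SST IP against 2.12, 1.92 and 1.58 CPM in SST UF. After AMPH, the region had in PV mice 1.41, 1.39, 1.21 and 0.721 CPM in IP and 1.52, 2.71, 1.32 and 1.89 CPM in UF, where the fractions overlapped and no change passed the test (log2 fold change -0.49, SE 0.49, edgeR adjusted p = 0.446, fitted without a filter on low counts).

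Before the results, 4 libraries need naming. Library 1 of PV IP after saline at 60 min stood above its 3 companions over the chosen regions, and the rule used it. Without it the rule keeps 2441 regions, of which 2030 are among the 2074. Library 4 of PV IP after AMPH at 60 min had 1386842 counts, against 3555432 to 9384748 in the rest of its group, and 18.6% of the chosen regions had no count in it. At 24 h, saline IP library Iso2-3 had 650666 counts with 46.2% of the regions at 0, and saline UF library Iso1-1 had 768921 with 37.4% at 0. The other libraries held 1764275 to 15120963 counts. The tagged gene was higher in its own IP: the region at Sst had 10.6 to 16.4 CPM in SST IP and 1.02 to 1.71 CPM in SST UF, and the regions at Pvalb summed to 38.3 to 77.3 CPM in PV IP after AMPH and 5.56 to 7.41 CPM in the matching UF. The other type's markers were not absent. In PV mice the regions at Npy summed to 2.88 to 9.37 CPM in IP and 1.41 to 2.78 CPM in UF after AMPH, and the region at Sst had 2.30 to 6.09 CPM in IP and 1.24 to 2.16 CPM in UF after saline, neither with overlap. After AMPH the Sst region overlapped, with 0.746 to 4.33 CPM in IP and 0.659 to 2.36 CPM in UF. The Npy regions overlapped after saline at 60 min, with 3.44 to 8.32 CPM in IP and 2.82 to 4.82 CPM in UF. At 24 h they overlapped after AMPH (0.808 to 3.86 CPM in IP, 1.78 to 3.83 CPM in UF) and were apart after saline (1.82 to 4.82 and 0 to 1.70 CPM). Pvalb in SST mice also overlapped, with 5.42 to 11.2 CPM in IP and 6.06 to 6.93 CPM in UF. Regions at 13 PV interneuron genes, however, summed to 980 to 1030 CPM in SST IP and 692 to 728 CPM in SST UF. Those at 18 SST interneuron genes summed to 918 to 947 CPM and 659 to 702 CPM. In PV mice after AMPH, the PV genes summed to 1103 to 1468 CPM in IP and 655 to 702 CPM in UF. The SST genes there had 732 to 857 CPM in IP and 699 to 776 CPM in UF, with overlap. Regions at Mag, an oligodendrocyte gene, summed to 1.49 to 2.44 CPM in SST IP and 30.1 to 31.2 CPM in SST UF.

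Averaged over the 2074 regions, SST IP libraries had 6.74, 7.33 and 7.97 CPM and SST UF libraries 2.52, 2.56 and 2.57 CPM. The regions were chosen by these values, which describe them and test nothing. The SST log2 ratio had a median of 1.25 and a range of 1.00 to 3.48, with 115 regions at 2 or more, and in 2029 regions every SST IP library was above every SST UF library. In PV mice after saline, which the rule also used, IP libraries had 2.29, 1.54, 1.59 and 1.47 CPM and UF libraries 3.42, 2.83, 3.01 and 2.93 CPM. The PV log2 ratio had a median of -0.66 and reached -2.65, and 635 regions (30.6%) were at -1 or below. The set therefore runs from regions that were merely not enriched in PV nuclei to regions several-fold depleted there. In bulk pulled-down nuclei, fewer cells of a type with an open region and less opening per cell cannot be told apart.

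**Figure D1:**
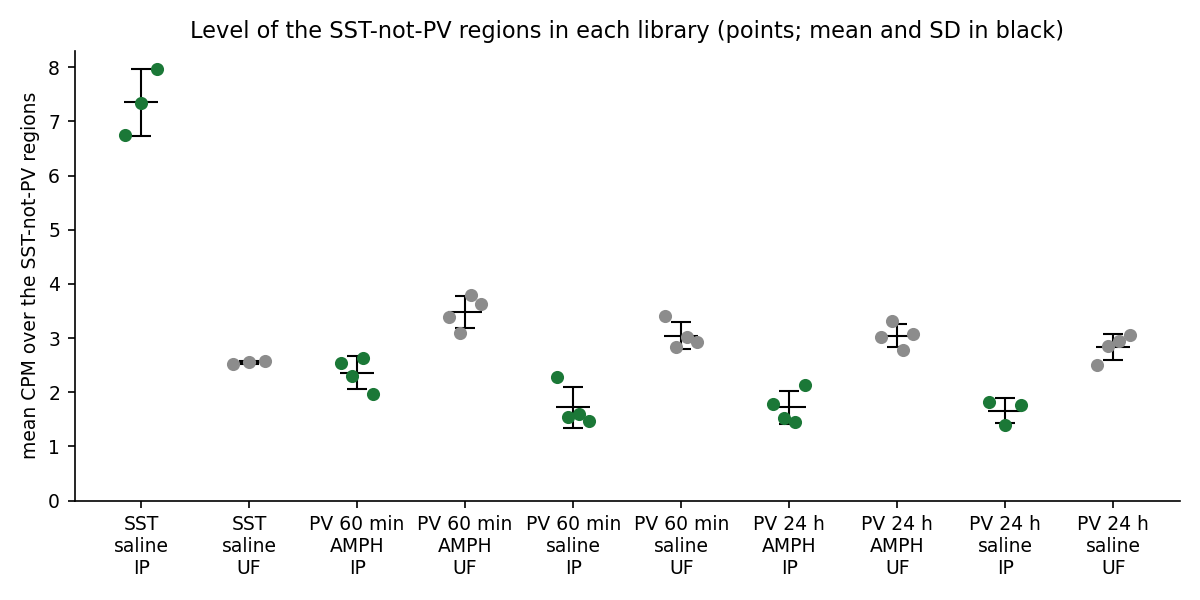
Mean accessibility of the 2074 regions in each library, in CPM (vertical axis), by group (horizontal axis); points are libraries, crosses the group means and bars the SD, and at 24 h the mean is over the 1268 regions with a counterpart. SST IP libraries lie at 6.74 to 7.97 CPM, above every other group, and in the PV mice each IP group lies below its UF group.

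At the edges of the rule, a region near Cobll1 (SST log2 ratio 1.00) was inside, with 7.20 CPM in SST IP and 3.35 CPM in SST UF, while one near Cxadr was just outside with 5.84 and 2.67 CPM. For the IP minimum, a region near Tmem47 was inside at 2.04 CPM and one near Arl4a outside at 1.98 CPM. For the PV limit, a region near Elmo1 was inside at 10.7 CPM in both PV fractions and one near Cdh8 outside at 2.99 CPM in both. Matched regions did not always cover the same bases: the median overlap was 167 bp, 1794 of the regions shared at least 100 bp with their PV region and 103 shared fewer than 50 bp, and the 2074 regions matched 2051 distinct PV regions.

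The regions with the highest SST ratios were nearly closed in SST UF. The highest lay 91.5 kb from Gabrg1, which encodes a GABA-A receptor subunit (chr5:70659339-70659538, mm10), and had 22.0, 19.3 and 25.8 CPM in SST IP against 1.69, 1.28 and 1.67 CPM in SST UF, a log2 ratio of 3.48. A region inside Pde1c, a calcium- and calmodulin-dependent phosphodiesterase gene, had 18.0, 18.4 and 20.0 CPM in SST IP against 1.69, 0.853 and 1.76 CPM in SST UF (3.32). A region 52.3 kb from Npy, the neuropeptide Y gene that marks striatal SST neurons, had 18.5, 13.7 and 13.9 CPM in SST IP against 0.763, 1.07 and 1.23 CPM in SST UF (3.38), although it shared only 8 bp with its PV region. No library overlapped between the SST fractions in any of the 3. After AMPH at 60 min the Npy-side region had 2.81, 1.92, 1.41 and 0.721 CPM in IP and 1.52, 1.52, 2.14 and 1.65 CPM in UF, with overlapping fractions (log2 fold change 0.20, SE 0.47, edgeR adjusted p = 0.761 without the filter). The Pde1c region had 0.281, 1.60, 0.808 and 1.44 CPM in IP and 0.138, 0.529, 1.15 and 1.65 CPM in UF, also overlapping (0.50, SE 0.71, edgeR adjusted p = 0.604 without the filter). The Gabrg1-side region had 1.69, 5.54, 3.23 and 1.44 CPM in PV IP and 0.830, 1.98, 1.81 and 1.89 CPM in PV UF. It was called higher in PV IP (1.20, SE 0.44, edgeR adjusted p = 0.0286) although IP libraries 1 and 4 lay within the range of UF, so its ratio after AMPH was above 0 where the saline ratio of the rule was not.

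The 8 AMPH libraries taken at 60 min were not used to choose the regions, and asked whether the absence of a PV excess holds in other mice. In 1661 of the 2074 regions (80.1%) it did, with a PV log2 ratio of 0 or less, against 59.0% of all matched regions, and 7 (0.338%) reached a log2 ratio of 1, against 11.6% of all matched regions and 92.3% of the regions open in both. The library means were 2.55, 2.30, 2.64 and 1.97 CPM in PV IP and 3.40, 3.10, 3.79 and 3.64 CPM in PV UF, with no overlap between the fractions. In the edgeR quasi-likelihood fit over all regions of the PV table, 1394 of the 2074 regions passed the filter on low counts. Of these, 27 (1.94%) were higher in PV IP than in UF at an adjusted p under 0.05, where 21.5% of all tested regions were higher. Lower in PV IP were 329 (23.6%), near the 22% of all tested regions. Of the matched regions tested, 17.7% were higher and 23.9% lower. The median log2 fold change was -0.36 for the tested members and 0.05 for the whole table. The regions open in both went the other way, with 4709 of 4858 tested called higher. They were chosen for a PV excess after saline.

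The filter kept regions through whichever fraction was high, so the fit was repeated over all regions. Without the filter, all 2074 regions were tested: 24 (1.16%) were higher in PV IP and 508 (24.5%) lower, against 21.3% and 20.6% of the table, and the median log2 fold change was -0.54 against 0.00. Of all matched regions, 16.2% were higher and 24.2% lower, with a median of -0.12. The AMPH libraries thus gave few regions with a PV excess, while the share with a significant PV deficit was close to that of the table. Without the shallow IP library 4, the filtered fit tested 1752 of the regions and called 70 higher and 435 lower. Without UF library 1 or 2 the higher calls numbered 12 and 11.

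**Figure D2:**
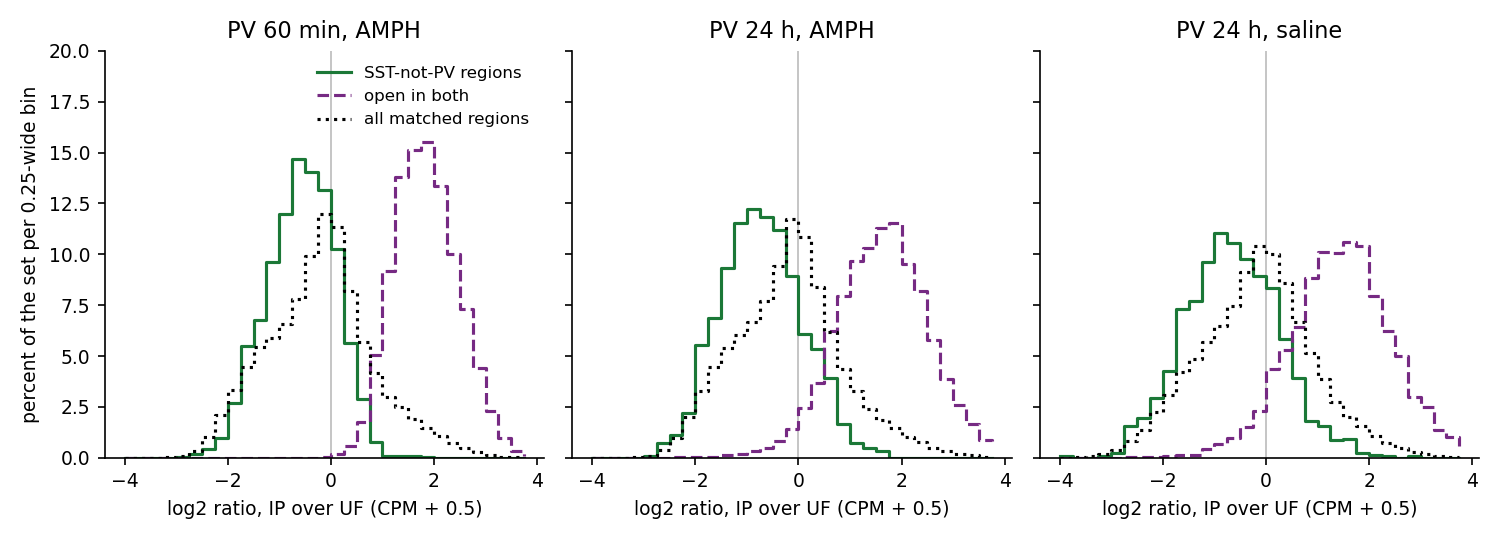
Distribution of the PV IP over UF log2 ratio (horizontal axis) in 3 sets of libraries that the rule did not use, 1 per panel, as the percent of each set per bin of 0.25 (vertical axis). After AMPH at 60 min 80.1% of the SST-not-PV regions lie at 0 or less, whereas 92.3% of the regions open in both lie at 1 or above, and both 24 h panels have the same order.

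Split by the saline PV ratio, which the rule used, the regions differed in the AMPH mice in the same order as the whole matched set, so the order is a description and not a trait of the chosen regions. Of the 225 regions with a saline PV log2 ratio of -1.5 or less, 178 (79.1%) were lower in PV IP after AMPH in the unfiltered edgeR fit, against 93.6% of all matched regions with such a ratio. Of the 410 between -1.5 and -1, 200 (48.8%) were lower, against 67.1%. The share was 16.2% (100 of 616) between -1 and -0.5, against 27.6%, and 3.65% (30 of 823) between -0.5 and 0, against 3.43%. By the SST ratio the shares lay closer together: 25.6% of the 1041 regions with an SST log2 ratio of 1 to 1.25 were lower in PV IP, and 20.9% of the 115 with a ratio of 2 or more (24 lower, 3 higher). Of all matched regions with such SST ratios, whatever their PV ratio, 6.24% (269) and 1.17% (24) were lower. The set holds 267 and 24 of these, because the rule kept only PV ratios of 0 or less. By shared bases, 30 of the 103 regions with under 50 bp in common with their PV region were lower (median log2 fold change -0.69), and 311 of the 1348 with 150 bp or more (-0.49); all 24 higher calls lay at 100 bp or more. That difference was not tested, and the same split was not made for all matched regions.

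Among members that fell most in PV IP, the Crym region (chr7:120195281-120195480), inside the gene of the thyroid-hormone-binding protein mu-crystallin, had 4.49, 4.26 and 5.96 CPM in SST IP and 2.12, 1.71 and 1.67 CPM in SST UF. In PV mice after AMPH it had 0, 0.213, 0.606 and 0.721 CPM in IP and 5.40, 3.51, 5.27 and 4.24 CPM in UF. Every PV IP library was thus far below every UF library, and the region fell by 3.62 on the log2 scale (SE 0.56, edgeR adjusted p = 2.54e-05). A region 108 kb from Cp, the ceruloplasmin gene, had 7.83, 8.67 and 9.36 CPM in SST IP and 2.12, 2.13 and 2.29 CPM in SST UF. In PV mice it had 0, 0.213, 0.606 and 0 CPM in IP and 4.29, 2.58, 2.63 and 3.54 CPM in UF, with no overlap (log2 fold change -3.40, SE 0.61, edgeR adjusted p = 0.000109). A region 4.07 kb from Il22ra2, a soluble interleukin-22 receptor gene, had 0.281, 0.639, 0.808 and 0 CPM in PV IP and 4.84, 4.76, 6.75 and 5.89 CPM in PV UF (-3.12, SE 0.47, edgeR adjusted p = 1.97e-05). The other 2 of the 5 lowest were a region inside Thsd7b (-3.13) and one nearest to the RNA-binding protein gene Nova1, 1208549 bp away (-3.29).

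The 5 highest lay inside Grid1 and Ptpre and nearest to Mmadhc, Ctnna2 and Ctnnd2. The Grid1 region (chr14:35430405-35430604), in the gene of a delta-type glutamate receptor, had 3.85, 2.89 and 3.72 CPM in SST IP and 1.10, 0.853 and 1.85 CPM in SST UF. In the AMPH libraries of PV mice it had 6.75, 2.98, 4.04 and 2.16 CPM in IP and 0.553, 1.19, 0.659 and 1.65 CPM in UF. The fractions did not overlap, and Grid1 was higher in PV IP by 2.16 on the log2 scale (SE 0.45, edgeR adjusted p = 0.000432). At 24 h its log2 fold changes were 1.84 after AMPH and 1.42 after saline, which did not pass the test (edgeR adjusted p = 0.1 and 0.269). The Ptpre region, in a receptor-type tyrosine phosphatase gene, had 4.50, 2.98, 4.04 and 1.44 CPM in PV IP and 1.11, 2.18, 1.48 and 1.18 CPM in PV UF, where IP library 4 fell inside the UF range (1.28, SE 0.41, edgeR adjusted p = 0.0132). This call was lost without UF library 1, 3 or 4 (adjusted p = 0.0691, 0.0554 and 0.0517). The region 290 kb from Mmadhc, a vitamin B12 trafficking gene, had 5.34, 4.48, 3.84 and 2.16 CPM in PV IP and 1.66, 1.06, 1.15 and 2.83 CPM in PV UF, where IP library 4 fell inside the UF range (1.55, SE 0.41, edgeR adjusted p = 0.00376). The regions near the catenin genes Ctnna2 and Ctnnd2 were higher by 1.51 and 1.31, and the Ctnnd2 call was lost without IP library 2, UF library 1 or UF library 2.

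**Figure D3:**
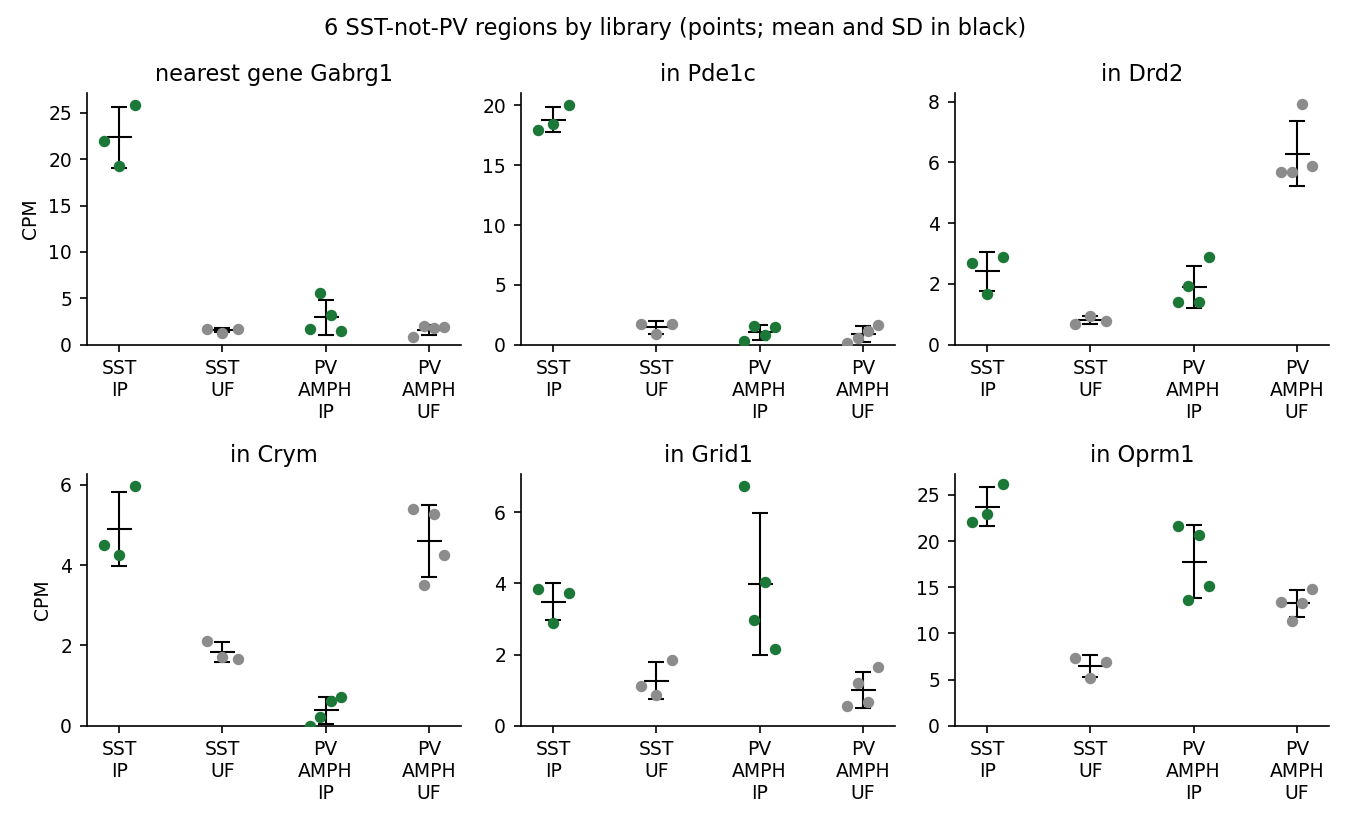
Accessibility in CPM (vertical axis) of 6 of the regions in SST mice after saline and PV mice after AMPH at 60 min (horizontal axis), 1 point per library with the group mean and SD in black. The Crym and Drd2 regions are above UF in SST IP and below UF in PV IP, the Grid1 region is above UF in both after AMPH, and the Gabrg1-side region reaches 25.8 CPM in SST IP.

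Libraries taken 24 h after repeated injections gave a second set of mice outside the rule. Of the 2074 regions, 1268 (61.1%) overlapped a region of the 24 h table, against 78.7% of all matched regions. Over these, library means were 1.79, 1.52, 1.45 and 2.13 CPM in IP and 3.02, 3.31, 2.79 and 3.07 CPM in UF after AMPH, and 1.82, 1.40 and 1.77 CPM in IP and 2.50, 2.85, 2.95 and 3.06 CPM in UF after saline. Neither pair overlapped. The PV ratio was 0 or less in 1033 regions (81.5%) after AMPH and in 965 (76.1%) after saline, where 58.2% and 56.5% of all matched regions with a 24 h counterpart were. In edgeR, 775 of the regions passed the filter. After AMPH, 2 (0.258%) were higher in IP and 156 (20.1%) lower, against 13.6% and 13.5% of all tested regions, with a median log2 fold change of -0.90 against -0.01 for the table. After saline, 4 (0.516%) were higher and 92 (11.9%) lower, against 11.1% and 8.72%, with a median of -0.83 against 0.12. Of the matched regions tested, 8.96% were higher and 16.7% lower after AMPH, and 7.48% and 10.98% after saline. Without the filter, 2 of the 1268 were higher and 203 (16.01%) lower after AMPH, against 9.83% and 10.3% of the table. After saline, 6 were higher and 90 (7.10%) lower, against 8.04% and 5.72% of the table. Of all matched regions with a 24 h counterpart, 6.57% were higher and 14.5% lower after AMPH, and 5.78% and 8.50% after saline. The share lower after saline was thus below that of the matched regions in the unfiltered fit. Leaving out the shallow saline IP library Iso2-3 gave 5 higher and 69 lower of 1019 tested. Leaving out IP library Iso2-2, Iso2-1 or UF library Iso2-2 gave 37, 56 and 52 lower. For AMPH, leaving out UF library Iso2-1 gave 103 lower.

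Of 720 regions tested at both times, 187 were lower in PV IP after AMPH at 60 min and 146 at 24 h, and 83 were lower in both, which is 44.4% of the first list and 56.8% of the second. The same shares were not taken over all matched regions, so whether the chosen regions differ from these was not tested. The region with the lowest p at 24 h lay 7.83 kb from Esm1, the endocan gene (chr13:113225931-113226130). It had 47.9, 58.3 and 62.4 CPM in SST IP and 30.1, 25.5 and 25.0 CPM in SST UF. After AMPH at 60 min it had 18.6, 13.7, 23.6 and 26.0 CPM in PV IP and 34.7, 23.8, 42.6 and 42.0 CPM in PV UF. At 24 h it had 10.5, 4.25, 14.3 and 11.9 CPM in IP and 32.8, 45.1, 49.4 and 43.1 CPM in UF after AMPH, and 9.27, 7.35 and 13.8 CPM in IP and 48.1, 38.5, 31.4 and 42.1 CPM in UF after saline. The fractions were apart in both 24 h groups, while at 60 min IP library 4 was above UF library 2. The log2 fold changes were -2.06 after AMPH at 24 h (SE 0.27, edgeR adjusted p = 4.9e-10), -1.98 after saline at 24 h (SE 0.31, edgeR adjusted p = 6.89e-07) and -0.70 after AMPH at 60 min (SE 0.22, edgeR adjusted p = 0.0115). A region 97.2 kb from Rreb1, a zinc finger transcription factor gene, was lower in all 3 comparisons (-2.04, -1.67 and -1.57), as was one 869 kb from the synaptic adhesion gene Lrrc4c (-2.18, -3.01 and -1.60).

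A region inside Oprm1, the mu-opioid receptor gene (chr10:6871606-6871805), went in opposite directions at the 2 times. In SST mice it had 22.1, 23.0 and 26.2 CPM in IP and 7.37, 5.12 and 6.94 CPM in UF. After AMPH at 60 min it had 21.7, 13.6, 20.6 and 15.1 CPM in PV IP and 13.4, 11.4, 13.3 and 14.9 CPM in PV UF, with IP libraries 2 and 4 close to or within the UF range, and it was higher by 0.58 (SE 0.23, edgeR adjusted p = 0.0403), a call not made without the filter (adjusted p = 0.0704). At 24 h it had 1.88, 7.77, 7.34 and 11.6 CPM in IP and 14.0, 9.46, 8.01 and 18.7 CPM in UF after AMPH, where the highest IP library overlapped UF, with a log2 fold change of -1.40 (SE 0.41, edgeR adjusted p = 0.00585). After saline at 24 h it had 4.00, 5.74 and 3.07 CPM in IP and 10.4, 6.80, 12.3 and 12.8 CPM in UF, which were apart (-1.53, SE 0.47, edgeR adjusted p = 0.0124). The times were counted over separately drawn regions in separate tables, and the difference between them was not tested. Few regions were higher in PV IP at 24 h: those inside Itpr1, an inositol trisphosphate receptor gene (1.81, SE 0.64, edgeR adjusted p = 0.0251), and Ide, the insulin-degrading enzyme gene (1.76, SE 0.62, edgeR adjusted p = 0.0258), after AMPH, and 4 after saline, among them one near Cep78 (3.34, SE 1.03, edgeR adjusted p = 0.0129). Leaving out a single library ended these calls: without UF library Iso2-1 the adjusted p was 0.374 for Itpr1 and 0.191 for Ide, and without saline IP library Iso2-2 it was 0.0985 for Cep78. The Itpr1 call was also lost without UF library Iso1-2 or IP library Iso2-1, and the Ide call without IP library Iso1-1 or Iso2-3 or UF library Iso1-1 or Iso1-3.

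No AMPH effect passed the test in these regions at 24 h. Against saline, 0 of the 775 tested regions were higher or lower in PV IP (0% of all tested regions in each direction), 0 in PV UF (0% higher and 0.00516% lower of all tested regions), and 0 had an AMPH effect that differed between the fractions (0% in each direction). DESeq2 also made no call in the 3 comparisons. At an unadjusted p under 0.05 in edgeR there were 16 higher and 9 lower in IP, 14 and 4 in UF, and 12 and 13 for the difference between fractions. In simulated counts, with changes set in regions drawn from all tested ones, edgeR called few in IP: 1 of 100 at 2-fold and 29 of 100 at 4-fold. In UF it called 4 and 33 of 100. The test could thus miss most changes of these sizes, and 0 calls do not show that AMPH had no effect. At 60 min the saline libraries are those of the rule, so AMPH against saline is given as values only: the median log2 difference over the 2074 regions was 0.34 in IP, with 0.05 over all matched regions, and 0.16 in UF, with 0.03.

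Position was not used by the rule, and the regions lay farther from genes than the matched set. Only 811 (39.1%) lay inside a protein-coding gene, against 58.4% of all matched regions and 44.7% of the regions open in both. Of those more open in PV and not SST, 64.4% did. Over 100 kb from any protein-coding gene lay 700 (33.8%), against 13.2% of all matched regions, 27.3% of those open in both and 9.94% of those more open in PV and not SST. Of all 2074, 157 (7.57%) lay over 500 kb away, against 2.41% of all matched regions. For regions outside genes, the median distance to the nearest gene was 118445 bp, against 40247.5 bp over all matched regions. Within 1 kb of a listed gene start lay 13 of the 1981 regions on chromosomes with listed starts (0.656%), against 13.9% of all matched regions. The share was 1.50% of those open in both and 3.51% of those more open in PV and not SST. The listing of starts is not complete. For regions inside a gene, the length of that gene had a median over regions of 248 kb, against 109 kb over all matched regions. A gene with several regions counts once for each. The median was 220 kb for the regions open in both and 152 kb for those more open in PV and not SST. Another of the set lay within 10 kb for 187 (9.02%). The share was 18.1% of those open in both and 9.32% of those more open in PV and not SST, sets of other sizes. These shares describe the regions, and no test of them was made.

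**Figure D4:**
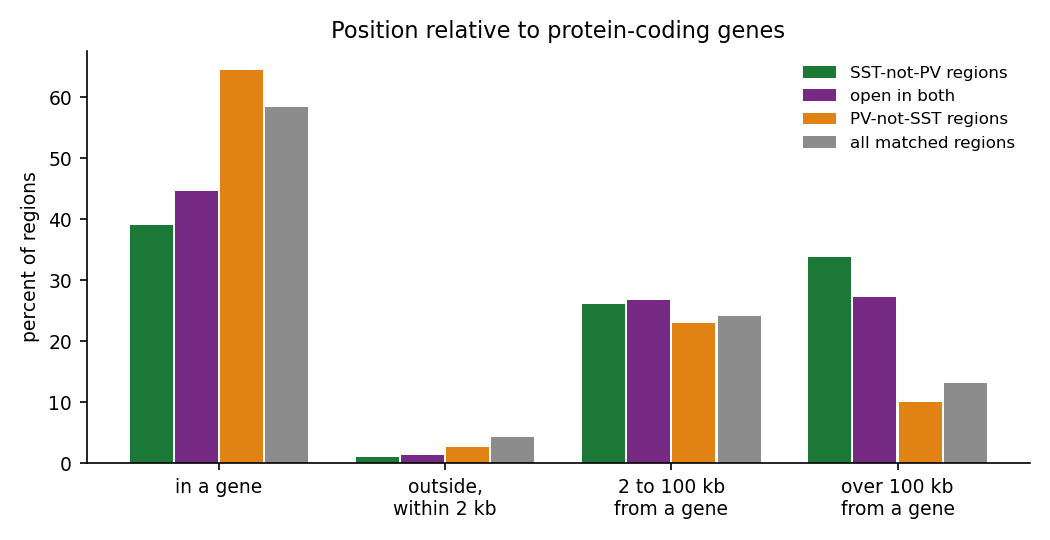
Position of the 2074 regions, the regions open in both, those more open in PV and not SST, and all matched regions relative to protein-coding genes, as percent of each set (vertical axis) in 4 classes of distance (horizontal axis). The SST-not-PV regions have the highest share over 100 kb from a gene (33.8%) and the lowest inside a gene (39.1%).

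Distance from genes went with the PV deficit, in the chosen regions and in the matched set alike. In the unfiltered AMPH fit at 60 min, the regions inside or within 2 kb of a gene had a median log2 fold change of -0.44 with 17.9% called lower (149 of 832), against -0.06 and 20.9% of all matched regions in that class. For 2 to 100 kb the values were -0.56 and 26.2% (142 of 542), against -0.19 and 27.4%. Over 100 kb they were -0.73 and 31% (217 of 700), against -0.45 and 34.1%. In each class the median was lower for the chosen regions while the share called lower was not higher. All matched regions include those with a saline PV ratio above 0, which the rule left out. The lower medians are therefore a description and not a trait of the chosen regions.

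Near SST interneuron markers, the regions of the set lay beyond 2 kb. None of 166 matched regions inside or within 2 kb of the 18 listed SST interneuron genes was in the set, where 832 of 83872 such regions of all genes were (0.992%), although 28 of the 166 passed the SST thresholds and 19 of these were open in both. With 166 regions, a count of 0 is near that share. Beyond 2 kb, 17 of the 113 regions whose nearest gene was an SST marker were in the set, against 1242 of 49963 for all genes (2.49%). Of these 17, 4 lay 52.3 to 166 kb from Npy, 3 at 90.7 to 285 kb from the calbindin gene Calb1, 3 nearest to Nxph1, and 2 nearest to the glutamate receptor gene Grin3a. A further 2 lay at 56.7 and 95.3 kb from Sst itself, and 1 each nearest to Crhbp, which encodes a corticotropin-releasing hormone binding protein, the substance P receptor gene Tacr1 and Satb1, a chromatin organiser. The distal regions were looked at after the values inside genes were seen. Of the 8 genes, values are given only for Sst, Calb1 and Npy, for the region of each with the highest SST level. The nearer Sst region had 7.58, 7.15 and 5.42 CPM in SST IP and 3.30, 2.66 and 2.11 CPM in SST UF. In PV mice after AMPH it had 0.563, 2.56, 1.41 and 4.33 CPM in IP and 2.63, 2.84, 3.46 and 2.59 CPM in UF, with IP library 4 above all of UF (log2 fold change -0.38, SE 0.44, edgeR adjusted p = 0.522). A Calb1-side region had 10.0, 15.5 and 20.6 CPM in SST IP and 5.25, 5.97 and 6.86 CPM in SST UF, and did not change by the test in PV IP (-0.07, edgeR adjusted p = 0.895). The region 166 kb from Npy did not pass at 60 min (-0.19, edgeR adjusted p = 0.565) but was lower at 24 h after AMPH (-1.41, edgeR adjusted p = 0.00384) and after saline (-1.76, edgeR adjusted p = 0.00421).

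Neuropeptide genes and their receptors held 5 of 102 regions in or near their bodies (4.90%; Galr1, Npy5r and Oprm1) and 13 of 159 beyond 2 kb (8.18%). The gene lists share members. Of these 13, the 4 near Npy and the 2 near Sst are also among the 17 near SST markers. Those near Pdyn and Penk, and the 2 at Oprm1, are counted again with the projection neuron genes below. The 3 nitric oxide and cGMP genes with a region were Pde1a, Pde5a and Prkg1, 3 of 167 regions. They encode enzymes that break down cyclic nucleotides and the kinase that cGMP activates. The Pde1a region had 13.5, 14.6 and 15.1 CPM in SST IP and 2.46, 2.77 and 2.81 CPM in SST UF. After AMPH in PV mice it had 3.09, 2.45, 1.82 and 0.721 CPM in IP and 2.63, 2.91, 2.96 and 2.83 CPM in UF, with IP library 1 above UF and no change by the test (-0.21, SE 0.39, edgeR adjusted p = 0.71). Adhesion and guidance genes held 29 of 1723 (1.68%) in 16 genes, glutamate and GABA receptors 7 of 597, and ion channels 10 of 693. Beyond 2 kb these 3 lists had 37 of 681 (5.43%), 10 of 224 (4.46%) and 4 of 155 (2.58%), against 2.49% of all genes. Nitric oxide and cGMP genes had 0 of 19 there. The guidance gene Slit3 held a region with 1.13, 1.70, 2.43 and 1.44 CPM in PV IP and 3.74, 2.98, 5.60 and 3.77 CPM in PV UF, without overlap (-1.03, SE 0.40, edgeR adjusted p = 0.0414). For PV interneuron genes the count was 2 of 162, in Eya1 and Erbb4, and for regulators of the medial ganglionic eminence 1 of 99, in Sox6. Beyond 2 kb the counts were 4 of 106 (3.77%) and 4 of 219 (1.83%). Immediate early genes (0 of 42) and housekeeping genes (0 of 30) had too few regions for a count of 0 to differ from the 0.992% of all genes, and beyond 2 kb they had 1 of 52, nearest to Egr2, and 0 of 34.

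Genes known from spiny projection neurons held 8 of 327 regions (2.45%), in Drd2, Ebf1, Foxp1, Gnal and Oprm1, and 9 of 214 beyond 2 kb (4.21%). The Drd2 region, inside the dopamine D2 receptor gene (chr9:49380681-49380880), had 2.70, 1.67 and 2.87 CPM in SST IP and 0.678, 0.959 and 0.791 CPM in SST UF. In PV mice after AMPH it had 1.41, 1.92, 1.41 and 2.88 CPM in IP and 5.67, 5.69, 7.90 and 5.89 CPM in UF, without overlap, and fell by 1.66 on the log2 scale (SE 0.37, edgeR adjusted p = 0.000806). Its SST and PV regions shared 92 bp, and the UF levels of the 2 tables are not over the same bases. A region 289 bp from Foxp1, a transcription factor gene of these neurons, had 4.24, 4.56 and 5.11 CPM in SST IP and 0.847, 1.17 and 1.76 CPM in SST UF. In PV mice it had 0.281, 0.852, 0.606 and 2.16 CPM in PV IP and 4.29, 2.45, 3.29 and 3.07 CPM in PV UF (-1.87, SE 0.49, edgeR adjusted p = 0.00344). Distal regions near the transcription factor genes Isl1 (-1.79, edgeR adjusted p = 0.000669) and Meis2 (-1.44, edgeR adjusted p = 0.00505) also fell in PV IP, while one 200769 bp from the dopamine D1 receptor gene Drd1 did not pass (-0.58, edgeR adjusted p = 0.1). Over all regions at the 28 projection neuron genes, each of which had a region, summed accessibility was 1664 to 1916 CPM in PV IP and 2587 to 2823 CPM in PV UF after AMPH, and 1813 to 1893 CPM in SST IP and 1863 to 1918 CPM in SST UF. The sums were over 556 regions counted in PV mice and 402 counted in SST mice, so levels cannot be compared between them. Within each, accessibility at these genes was lower in IP than in UF in PV mice and overlapped in SST mice. Its part in the PV deficit was not tested. The 12 oligodendrocyte genes summed to 254 to 333 CPM in PV IP and 493 to 610 CPM in PV UF after AMPH, and to 286 to 293 CPM in SST IP and 638 to 667 CPM in SST UF. In the set were 0 of their 64 regions, and likewise none of the 47 of astrocyte, 37 of oligodendrocyte precursor, 29 of microglial and 30 of endothelial genes, numbers at which the 0.992% of all genes gives less than 1 region. Beyond 2 kb the counts were 0 of 41 for oligodendrocyte, 2 of 72 for astrocyte, 0 of 27 for oligodendrocyte precursor, 1 of 36 for microglial and 1 of 21 for endothelial genes, against 2.49% of all genes.

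Counted by gene, 659 protein-coding genes held a region, 522 of them a single one and 37 at least 3. Ankfn1, which encodes a protein with ankyrin repeats and a fibronectin domain, held the most: 7 of its 27 matched regions over 388 kb (chr11:89390092-89777901). Measured from the lower-coordinate end of the gene, they lay at 129.2, 129.4, 152.1, 353.7, 370.4, 387.6 and 387.8 kb, and the first 2 matched the same PV region. All 7 had a PV ratio below 0 after AMPH, and those at 152.1 and 353.7 kb were lower by the unfiltered test (-2.50 and -1.48, edgeR adjusted p = 0.00105 and 0.018). Other regions of the gene were open in both types, such as one at 220.0 kb with 10.9 CPM in SST IP and 1.48 CPM in SST UF, and 10.5 CPM in PV IP and 1.78 CPM in PV UF after AMPH. The region at 370.4 kb was the most accessible of the 7, with 15.9, 18.0 and 21.0 CPM in SST IP and 6.95, 5.86 and 8.53 CPM in SST UF. After AMPH at 60 min it had 6.19, 8.63, 7.68 and 3.61 CPM in PV IP and 8.99, 8.66, 12.2 and 7.54 CPM in PV UF, which overlapped (-0.27, SE 0.29, edgeR adjusted p = 0.479). At 24 h after AMPH it had 0.808, 4.66, 1.55 and 5.13 CPM in IP and 9.66, 12.3, 10.7 and 17.8 CPM in UF, which were apart (-2.43, SE 0.45, edgeR adjusted p = 1.23e-05), and after saline at 24 h it was also lower (-2.22, SE 0.54, edgeR adjusted p = 0.00135). Among the genes with the next most were the laminin gene Lama2 (5 of 29) and the receptor phosphatase gene Ptprd (5 of 76), then Adamts12, Dock1, Thsd7b, Dpp10 and Macrod2 with 4 each and Lsamp with 3 of 89.

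**Figure D5:**
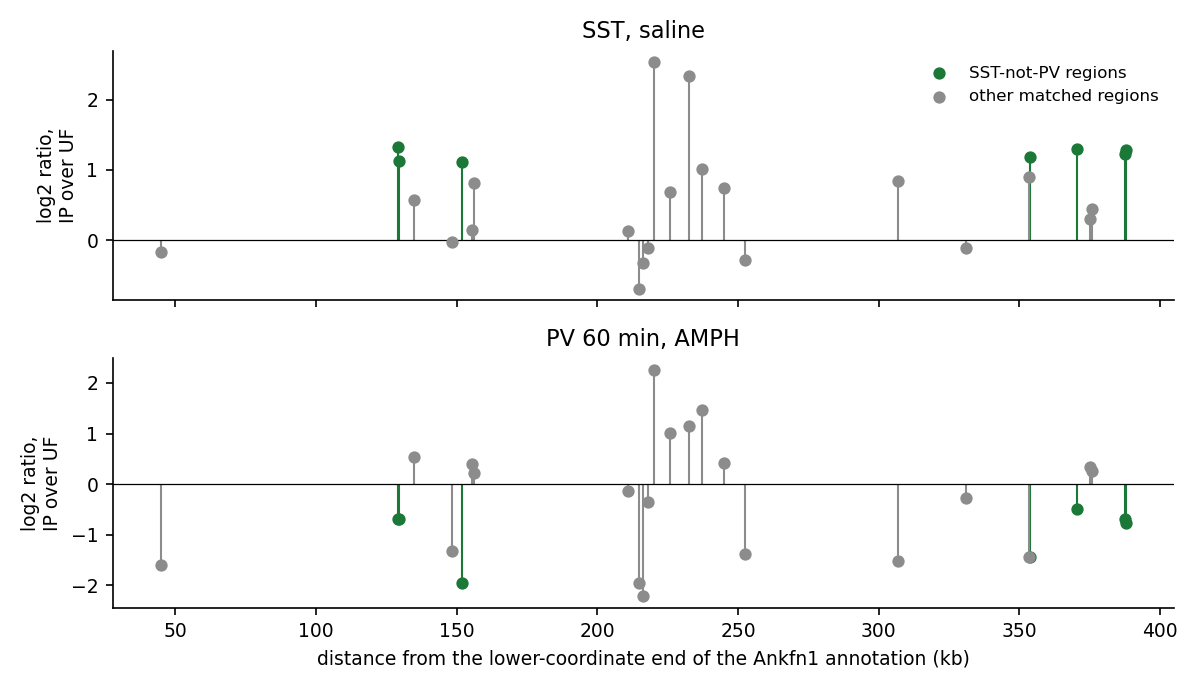
The log2 ratio of IP over UF (vertical axis) for the 27 matched regions of Ankfn1 by their distance in kb from the lower-coordinate end of the gene (horizontal axis), in SST mice after saline and in PV mice after AMPH at 60 min. The 7 SST-not-PV regions lie above 1 in SST and below 0 in PV, while the region at 220.0 kb is above 2 in both.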

How the data were processed

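ATAC-seq libraries from immunoprecipitated (IP) and unbound (UF) nuclei were analysed from 3 tables of read counts per region, mm10, deposited by the authors without normalization. Per the submitters' processing notes, the tools were Bowtie2 2.3.4.3 and MACS2 2.1.2, with cutadapt 1.8.3, bedtools 2.25.0 and DESeq2 1.18.1 also listed; which reads a count holds is not given in the sources used here. Pulled-down and unbound nuclei differ in number and type, so CPM compares shares of a library's counts, and all values are relative to the other counted regions.

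An SST region was matched to the PV region with the longest overlap. Every fit used the whole table in edgeR 4.0.16 (R 4.3.3): TMM scaling, filterByExpr (minimum count 10, minimum total 15), a robust quasi-likelihood test and Benjamini-Hochberg adjustment, with calls at an adjusted p under 0.05. The 24 h fit had a term for Iso1 or Iso2, whose meaning the labels do not give; saline IP holds Iso2 libraries only, AMPH IP 1 Iso1 and 3 Iso2, AMPH UF 3 Iso1 and 1 Iso2, and saline UF 2 of each. DESeq2 1.42.0 was an alternative. The fits were checked on simulated counts. Gene positions and promoters are RefSeq's, GRCm38.p6, with tables handled in pandas 2.3.3.

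The members and gene lists were chosen with earlier results of these data known. Regions were named by fixed rules (highest SST ratio, list genes, extreme or lowest-p calls, most members per gene, threshold neighbours); those at promoters and beyond 2 kb of list genes were added after their values were seen. One named gene is not reported here. Labels do not say whether replicates are separate cohorts, so p-values measure the spread between these libraries. Same-numbered IP and UF libraries were not treated as pairs: the correlation of their deviations was 0.0800 to 0.374 over 4 pairs at 60 min and -0.0313 to 0.0410 over 4 pairs at 24 h.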

Additional observations from a re-analysis of the deposited data

Results flagged for a closer look

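Of 70 groups of 4 libraries examined, 4 had a single library far from the others, where chance gives about 1 in 20. Averaged over the 2074 regions, library 1 of PV IP after saline at 60 min had 2.29 CPM while its 3 companions had 1.47 to 1.59 CPM. In the region nearest to Gabrg1, library 1 of PV UF after AMPH was low at 0.830 CPM, the others being 1.81 to 1.98 CPM. In the Drd2 region, library 3 of the same group was high at 7.90 CPM, against 5.67 to 5.89 CPM. In the region 97.2 kb from Rreb1, library 1 of that group was low at 12.5 CPM, against 15.8 to 16.4 CPM; all 4 stayed far above the 4 PV IP libraries, which had 4.50, 5.22, 5.05 and 2.16 CPM.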

How the results depend on the processing

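Of 202 alternatives for counts and shares, 176 stayed within the limits set for the same result and 26 moved. Those that stayed include counts of 0 that remained 0 with single libraries left out. These belong to AMPH against saline at 24 h in IP, in UF and for the difference between fractions. The number of regions was 2521 with a pseudocount of 0.25 CPM and 1442 with 1 CPM, 1916 with TMM scaling, and 1948 to 2610 when single libraries of the rule were left out. After AMPH at 60 min, regions lower in PV IP numbered 508 without the filter and 268 to 435 with single libraries left out; higher ones numbered 16 with DESeq2 and 11 (without UF library 2) to 70 (without IP library 4). After AMPH at 24 h, higher regions numbered 1 with an overlap of 100 bp or more, 4 with DESeq2's size factors, 5 with DESeq2's Wald test, 7 with Iso2 libraries only and 0 to 4 with single libraries left out, and lower ones 65 with Iso2 libraries only and 103 to 151 with single libraries left out. After saline at 24 h, higher regions numbered 8 with Iso2 libraries only and 1 to 5 with single libraries left out, and lower ones 37 to 102. With Iso2 libraries only, AMPH UF is 1 library, assumed to vary like the other groups, so those AMPH counts say little about stability. Where libraries were left out the fits had fewer samples; the cause was not tested.

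The replicate numbers were entered as a block although nothing shows that they pair the libraries. With the replicate block, regions after AMPH at 60 min numbered 34 higher and 350 lower. At 24 h they numbered 0 higher and 52 lower after AMPH, and 2 higher and 28 lower after saline, fits in which libraries with an unmatched number add little. At 60 min, 3 of 4 IP libraries correlated best with the UF library of their own number, a hint from the data and not from the design. For regions named singly, 264 alternatives kept the call and 25 lost it. With the block, the calls for Cep78, Itpr1 and Ide were not made (adjusted p = 0.104, 0.111 and 0.152 in edgeR). The shallow libraries, at 650666 to 1386842 counts, hold many of the regions at 0.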
